A study of Mus musculus with 6 samples.

Results

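The transcripts described here are 9 genes of the complement system, C1qa, C1qb, C1qc, C2, C4b, C3, Cfb, Serping1 and C3ar1, of 32285 genes in the count table. They were listed by name and chosen by their measured values in the comparison reported here, so that their differences between the groups are given as a description without a test. RNA was sequenced from retinas of wild-type C57BL/6J mice at postnatal day (PN) 18, with 3 libraries from OIR-CIH eyes and 3 from OIR-Norm eyes. All mice were kept with their mothers in 75% O2 from PN8 to PN13, the oxygen-induced retinopathy (OIR) model, in which the central retina loses its capillaries and becomes ischemic on return to room air. OIR-CIH mice then underwent chronic intermittent hypoxia (CIH), 266 daily cycles of 135 s between 20.95% and 5% O2 over 10 h of their sleep. OIR-Norm mice received the same gas flow with no change in O2. The comparison therefore asks how CIH alters complement transcripts in a retina that is already ischemic, since both groups carry the OIR injury and neither is a retina in room air throughout.

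Complement is a cascade of plasma and tissue proteins that tags surfaces for removal by phagocytes. In the classical pathway C1q, a protein of 3 kinds of chain, binds a target, and its proteases then cut C4 and C2 to form an enzyme that cleaves C3. The alternative pathway amplifies C3 cleavage through factor B, C1 inhibitor blocks the proteases of C1, and the C3a receptor senses a C3 fragment. In the retina and brain microglia are the main source of C1q and carry receptors for C3, and C1q and C3 are known for their part in the removal of synapses.

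Sequence matters first for C4b, because mouse carries a near-identical copy, C4a, whose reads may be exchanged with those of C4b. C4b lay on the minus strand of chromosome 17 at 34728380 to 34743882 and C4a at 34809092 to 34823464 (GENCODE M21, GRCm38). Over 5204 aligned bases of the C4b coding sequence the genes were 96.1% identical, and 15.2% of all stretches of 100 bases in C4b transcripts also occurred in C4a. The stretch of 80 coding bases that separates them best lay in exon 21 of 41 in both genes, at chr17:34735430-34735509 for C4b and at chr17:34816086-34816165 for C4a, and is printed 5′ to 3′ on the minus strand with the 13 differing bases in capitals.
C4b: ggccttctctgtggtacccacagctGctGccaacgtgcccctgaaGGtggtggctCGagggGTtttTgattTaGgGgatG
C4a: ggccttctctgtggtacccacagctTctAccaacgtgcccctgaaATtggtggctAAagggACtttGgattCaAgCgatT

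Reads over such stretches can be assigned to 1 of the 2 genes, whereas a read inside the longest identical run of 433 bases cannot. Of the other members, C2 shared 1.59% of its 100-base stretches with Zbtb12, a zinc finger gene that lies inside it on the opposite strand, and the remaining 7 shared none with any other gene.

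Promoter sequences, of 250 bases before and 50 after the start, were held for 4 of the 9 genes (RefSeq, GRCm38.p6): C1qb, C1qc, C3 and C3ar1. They were searched on both strands for the PU.1 core GAGGAA (a factor of myeloid cells), the STAT motif TTCNNNGAA, the C/EBP motif TTGCNNAA and the hypoxia response core ACGTG. The 3 promoters with a match are shown on the minus strand, which is the coding strand, with the match in capitals: C1qb at chr4:136886151-136886450, C1qc at chr4:136892865-136893164 and C3 at chr17:57228087-57228386.
C1qb: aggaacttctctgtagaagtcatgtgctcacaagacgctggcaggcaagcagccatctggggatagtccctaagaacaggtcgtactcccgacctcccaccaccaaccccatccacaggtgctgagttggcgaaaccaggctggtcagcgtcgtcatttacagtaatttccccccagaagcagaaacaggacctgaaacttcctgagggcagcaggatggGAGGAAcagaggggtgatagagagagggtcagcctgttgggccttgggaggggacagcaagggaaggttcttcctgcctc
C1qc: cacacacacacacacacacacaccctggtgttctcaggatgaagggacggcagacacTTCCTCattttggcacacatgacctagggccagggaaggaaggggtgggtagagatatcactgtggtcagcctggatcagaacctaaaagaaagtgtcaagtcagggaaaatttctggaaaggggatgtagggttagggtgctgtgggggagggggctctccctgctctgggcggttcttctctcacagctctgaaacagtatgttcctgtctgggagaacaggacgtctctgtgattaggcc
C3: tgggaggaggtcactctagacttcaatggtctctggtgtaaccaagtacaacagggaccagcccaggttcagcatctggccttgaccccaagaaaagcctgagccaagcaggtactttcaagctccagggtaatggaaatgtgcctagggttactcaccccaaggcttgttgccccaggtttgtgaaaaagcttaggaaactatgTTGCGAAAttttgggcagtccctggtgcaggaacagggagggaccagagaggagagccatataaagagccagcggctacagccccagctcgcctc

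The PU.1 core began 30 bases before the start of C1qb and, read on the other strand as TTCCTC, 193 bases before that of C1qc. Of all 32851 promoters 28.3% held it. C3 held a C/EBP match, TTGCGAAA, which began 45 bases before its start, and 10.8% of all promoters held that motif. The C3ar1 promoter held none of the 4 motifs. No STAT or hypoxia response match was found in these 4 windows, against 8.3% and 19.6% of all promoters.

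Total counts were between 26289905 and 38010151 per library and overlapped between the groups. Values are CPM, counts scaled to a common library total by the trimmed mean of M-values (TMM). A gene was called at an adjusted p under 0.05 in edgeR's quasi-likelihood test if its log2 fold change was also above 0.5 or below -0.5, and log2 fold changes are OIR-CIH against OIR-Norm with their standard error (SE). Of 20021 genes tested, 63 were called, 0.315%, and 43 of them were lower in OIR-CIH. OIR-Norm replicate 2 stood apart by its lens transcripts, with a summed level of 476 CPM for 6 markers against 14.1 to 79.8 CPM in the other 5 libraries. Of 8 pigment epithelium markers, led by Ttr, 4 were lower and 4 higher in OIR-CIH, and none was called. Rpe65, Lrat, Ttr and Rgr were higher, at 151% to 175% of their OIR-Norm means. Best1, Tyr, Pmel and Mlana were lower, at 52.6% to 97.9%. The sums of all 8 overlapped, at 213.1 to 395.1 CPM in OIR-Norm and 342.0 to 494.5 CPM in OIR-CIH, with the higher mean in OIR-CIH. The paper names 3 eyes per group, as many as there are libraries. All 6 libraries held at least 1 count of both Xist and the Y-linked Ddx3y, but their levels were not compared. Whether each library stands for 1 animal is thus not settled here, and the SD and p-values measure the spread between libraries.

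C4b and Serping1 differed most. C4b in OIR-CIH retinas was at 45.9% of its OIR-Norm level and Serping1 at 55.7%, whereas the C1q chains, C2, C3 and Cfb were at 80.4% to 95.3%, and C3ar1 was at 60.6%. The mean was lower in OIR-CIH for all 9 genes, with a median log2 fold change of -0.30 against -0.0028 over all genes tested. In 7 of the 9 genes each OIR-CIH library was below each OIR-Norm library, a pattern seen in 9.26% of all genes tested. C4b and Serping1 were called, both lower, against 0.215% of all genes called lower. These counts were set by the choice of the genes and nothing is read from them. All 9 passed the minimum of 10 counts in total, and the smallest count of any member in a library was 40, for C3ar1.

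**Figure D1:**
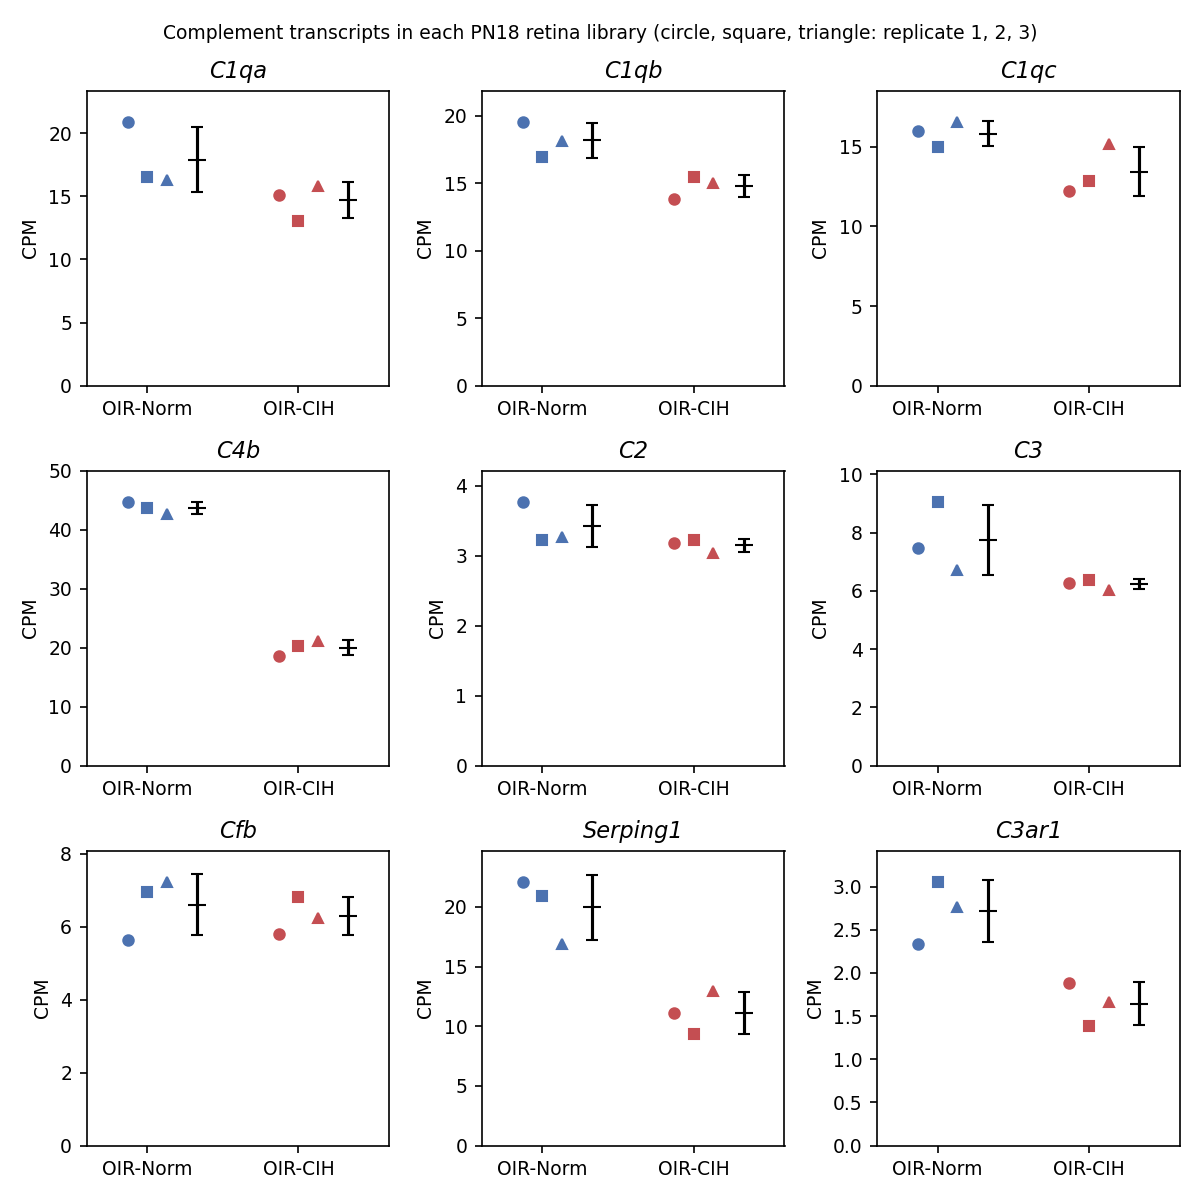
CPM of the 9 complement genes in each library, with OIR-Norm in blue and OIR-CIH in red, and the mean ± SD of 3 libraries in black beside the points. The C4b points lie between 42.6 and 44.7 CPM in OIR-Norm and between 18.6 and 21.2 CPM in OIR-CIH, whereas the groups overlap for C1qc and Cfb.

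The C1q chains form the recognition part of the classical pathway. Their genes lie side by side on the minus strand of chromosome 4, between 136880129 and 136898803, within 18.7 kb. C1qa was at 20.9, 16.6 and 16.3 CPM in OIR-Norm replicates 1 to 3 and at 15.1, 13.1 and 15.8 CPM in OIR-CIH replicates 1 to 3. The groups did not overlap, although the nearest libraries, OIR-Norm replicate 3 and OIR-CIH replicate 3, were close, and the log2 fold change was -0.29 (SE 0.13), or -0.17 without OIR-Norm replicate 1. For C1qb the levels were 19.5, 16.9 and 18.1 CPM in OIR-Norm and 13.9, 15.5 and 15.1 CPM in OIR-CIH, with a log2 fold change of -0.30 (SE 0.10). Here too the groups were apart, and OIR-Norm replicate 1 was again the highest. C1qc was measured at 16.0, 15.0 and 16.6 CPM in OIR-Norm and at 12.2, 12.9 and 15.2 CPM in OIR-CIH, a log2 fold change of -0.24 (SE 0.12). OIR-CIH replicate 3 was above OIR-Norm replicate 2, so that the groups overlapped for this chain.

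The 3 chains kept similar proportions. C1qa made up 34.4% ± 2.55 (SD, n = 3) of the summed C1q CPM in OIR-Norm and 34.2% ± 2.56 in OIR-CIH, C1qb 35.1% ± 0.468 and 34.6% ± 2.49, and C1qc 30.6% ± 2.10 and 31.2% ± 1.62. The summed C1q level was 56.4, 48.5 and 51.0 CPM in OIR-Norm and 41.2, 41.4 and 46.0 CPM in OIR-CIH. Markers of microglia moved with it. Of 16 microglia markers 15 were lower in OIR-CIH and 1, Fcrls, was called, and their summed level, led by Ctss, was 148.9 to 169.1 CPM in OIR-Norm and 124.9 to 139.8 CPM in OIR-CIH. As a share of that marker sum, C1q was at 33.3%, 28.7% and 34.2% in OIR-Norm and at 33.0%, 32.7% and 32.9% in OIR-CIH. The 2 groups overlapped in this share, although they were apart in both of the sums that make it up. In retinal RNA fewer cells of a type and less RNA per cell cannot be told apart. By flow cytometry the paper reports fewer microglia in OIR-CIH than in OIR-Norm retinas at PN18, but the libraries themselves hold no cell count.

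The 5 genes with the profile closest to the mean of the C1q chains were neither complement genes nor on the microglia list. By root mean square distance of centred log2(CPM + 0.5) over the 6 libraries, among 12049 genes with a mean of at least 5 CPM, the nearest were Tcof1, Gclm, Bahd1, Stk35 and Nin, at distances from 0.033 to 0.048. Between single C1q chains, which were not averaged or picked, the distance was 0.096 for C1qb and C1qc, 0.13 for C1qa and C1qb and 0.14 for C1qa and C1qc, and the 2 sets of distances cannot be ranked against each other.

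Downstream of C1q, C4b encodes C4, whose cleaved fragment attaches to surfaces and helps to form the C3-cleaving enzyme. C4b was at 44.7, 43.7 and 42.6 CPM in OIR-Norm and at 18.6, 20.3 and 21.2 CPM in OIR-CIH, from 475 to 1377 counts per library. The groups were far apart relative to their spread, with means of 43.7 ± 1.03 and 20.03 ± 1.28 CPM (SD, n = 3) and a log2 fold change of -1.12 (SE 0.08). The near-identical copy C4a was measured at 3.05, 3.58 and 3.30 CPM in OIR-Norm and at 3.61, 3.99 and 3.10 CPM in OIR-CIH. Its groups overlapped and it was not called (log2 fold change 0.10, SE 0.17, edgeR adjusted p = 0.836). The ratio of C4b to C4a was 14.6, 12.2 and 12.9 in OIR-Norm and 5.16, 5.09 and 6.84 in OIR-CIH. How reads in the stretches common to both genes were assigned was not tested.

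C4b also differed from C1q in the size of its difference. The ratio of C4b to summed C1q was 0.793, 0.901 and 0.837 in OIR-Norm and 0.452, 0.490 and 0.460 in OIR-CIH, without overlap. The profile nearest to C4b, among 12051 genes, was that of Gfap, the intermediate filament of astrocytes and reactive Müller glia, at a distance of 0.11. Antxr2, Cebpd, Fgf2 and Pcolce followed at 0.14 to 0.17. Gfap was at 158.4, 147.3 and 119.3 CPM in OIR-Norm and at 61.5, 62.5 and 67.5 CPM in OIR-CIH and was called (log2 fold change -1.15, SE 0.10, edgeR adjusted p = 0.000107). Being the nearest profile it gave a ratio of C4b to Gfap that overlapped between the groups, at 0.282, 0.297 and 0.357 in OIR-Norm and at 0.303, 0.324 and 0.314 in OIR-CIH. Of 6 astrocyte markers, Gfap included and led by Igfbp5, 5 were lower, and their sum was 324.9 to 452.1 CPM in OIR-Norm and 265.4 to 300.2 CPM in OIR-CIH. Without Gfap the sums overlapped, at 205.6 to 304.8 CPM in OIR-Norm and 203.9 to 232.7 CPM in OIR-CIH. For the 10 Müller glia markers, led by Glul, 4 were lower and 6 higher, none was called and the sums overlapped. The part of either cell type in the C4b difference was not tested.

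**Figure D2:**
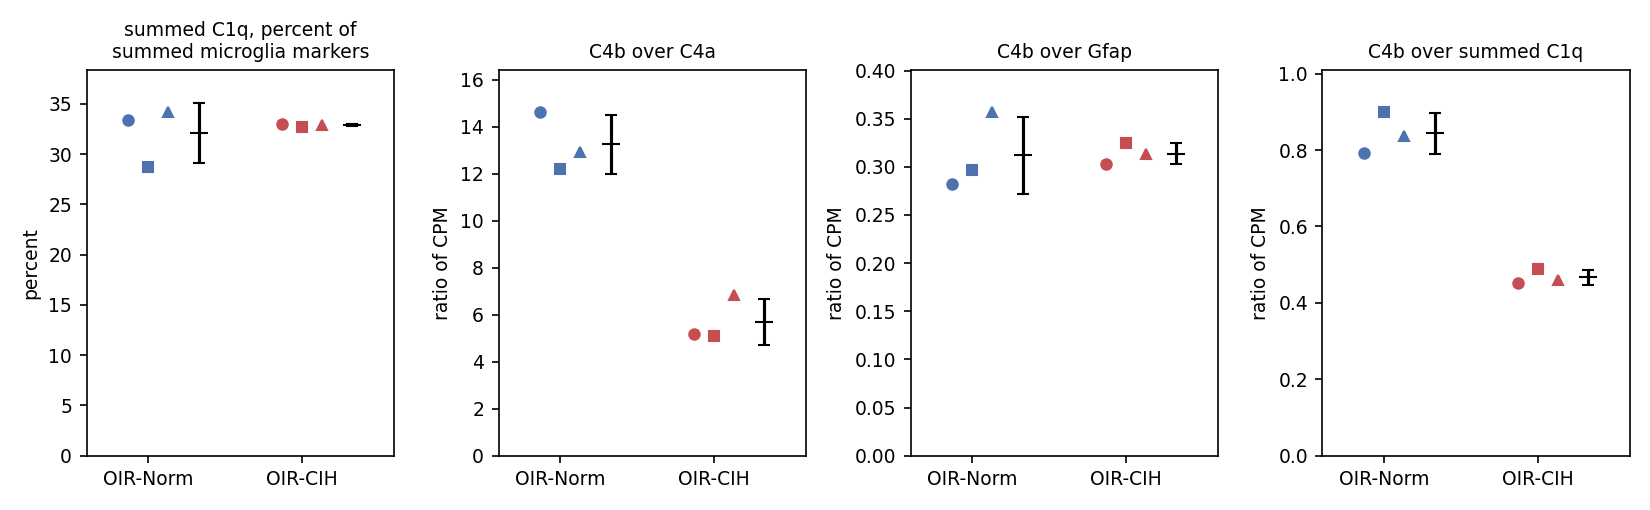
From left to right, the summed C1q CPM as a percent of the summed microglia markers, and the ratios of C4b to C4a, C4b to Gfap and C4b to summed C1q, in each library (circle, square and triangle for replicates 1, 2 and 3) with the mean ± SD in black. The groups overlap in the panels for C1q and for C4b to Gfap, and OIR-CIH lies below OIR-Norm for C4b to C4a, with 5.09 to 6.84 against 12.2 to 14.6, and for C4b to summed C1q.

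C2, the protease that joins C4 in this enzyme, was low. It was at 3.76, 3.23 and 3.27 CPM in OIR-Norm and at 3.18, 3.22 and 3.04 CPM in OIR-CIH, with a log2 fold change of -0.12 (SE 0.16), or -0.05 without OIR-Norm replicate 1. OIR-CIH replicate 2 and OIR-Norm replicate 2 were almost level, so that the absence of overlap rested on a gap smaller than the spread within either group. Zbtb12, on the other strand, was not called (log2 fold change -0.17, SE 0.13, edgeR adjusted p = 0.627). The library kit keeps strand, but which strand was counted is not stated, and reads of C2 and Zbtb12 in their overlap may not be told apart.

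C3 is the protein on which the pathways converge. Its transcript was at 7.46, 9.05 and 6.72 CPM in OIR-Norm and at 6.28, 6.38 and 6.03 CPM in OIR-CIH, a log2 fold change of -0.31 (SE 0.14). The groups were apart, and the OIR-CIH libraries varied less (SD 0.178 CPM) than the OIR-Norm libraries (SD 1.19 CPM), of which replicate 2 was the highest. Without that library, which also stood apart by its lens transcripts, the log2 fold change was -0.19. Cfb encodes factor B, the protease of the alternative pathway. It was at 5.65, 6.95 and 7.23 CPM in OIR-Norm and at 5.81, 6.83 and 6.25 CPM in OIR-CIH, with a log2 fold change of -0.07 (SE 0.15). The groups overlapped widely, the lowest library of all being OIR-Norm replicate 1, and without OIR-Norm replicate 3 the log2 fold change was 0.0006.

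Serping1 encodes C1 inhibitor, which blocks the C1 proteases and also the contact system of plasma. Its level was 22.1, 20.9 and 16.9 CPM in OIR-Norm and 11.1, 9.33 and 12.9 CPM in OIR-CIH, with a log2 fold change of -0.84 (SE 0.14). The groups were apart, and the nearest libraries were replicate 3 of each. The log2 fold change ran from -0.97 to -0.73 over libraries left out in turn, and Serping1 no longer passed the thresholds without OIR-CIH replicate 1 or 2 or OIR-Norm replicate 1 or 2. Most markers of fibroblasts and vessel walls were also lower in OIR-CIH. All 8 fibroblast markers, led by Fbln1, were lower in OIR-CIH, none was called, and their sum was 144.5 to 211.8 CPM in OIR-Norm and 98.4 to 144.0 CPM in OIR-CIH. Serping1 amounted to 11.2% ± 1.16 of this sum in OIR-Norm and to 9.76% ± 0.957 in OIR-CIH (SD, n = 3), with the groups overlapping. Fbln1 was itself the third nearest profile to Serping1, after Cldn2 and Slc7a11 and before Csf1 and Sned1, and without it the share was 20.5% to 28.5% in OIR-Norm and 17.5% to 22.2% in OIR-CIH. Pdgfra, at a mean of 42.0 CPM in OIR-Norm and 30.5 CPM in OIR-CIH, was on both the fibroblast and the astrocyte list. The sums of these lists are therefore not separate observations. All 8 mural markers, led by Rgs5, and 8 of 10 endothelial markers, led by Kdr, were lower too, none was called, and both sums overlapped. The mural sum was 149.7, 229.6 and 94.7 CPM in OIR-Norm and 87.0, 102.2 and 133.1 CPM in OIR-CIH. The endothelial sum was 251.4, 308.7 and 228.0 CPM in OIR-Norm and 228.3, 233.5 and 267.5 CPM in OIR-CIH. OIR-Norm replicate 2, which stood apart by its lens transcripts, was the highest in both. OIR-Norm replicate 3 was the lowest OIR-Norm library in both sums and for Serping1, but only for Serping1 was it above every OIR-CIH library. The part of these cells in the Serping1 difference was not tested.

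C3ar1, the receptor for the C3 fragment C3a, was the lowest of the 9 genes per kb of exon. It was at 2.34, 3.05 and 2.76 CPM in OIR-Norm and at 1.88, 1.39 and 1.67 CPM in OIR-CIH, from 40 to 88 counts per library. The groups were apart, with a log2 fold change of -0.72 (SE 0.20) that was not called. As a share of the microglia marker sum it was 1.38%, 1.81% and 1.86% in OIR-Norm and 1.51%, 1.10% and 1.19% in OIR-CIH. In this share the groups overlapped, through OIR-Norm replicate 1 and OIR-CIH replicate 1. Blood leukocytes left little RNA in these retinas, with 0.422 to 1.44 CPM for 8 summed monocyte and granulocyte markers over the 6 libraries, led by S100a9, and Cd3e at 0 counts in all of them.

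Levels of different genes are comparable only per length, and were taken as CPM per kb of annotated exon. In OIR-Norm C1qa (17.2 ± 2.48, SD, n = 3) and C1qb (16.7 ± 1.19) were the highest and differed by less than their spread. Serping1 (8.58 ± 1.16), C1qc (8.20 ± 0.413) and C4b (7.67 ± 0.181) came next, within the spread of Serping1. Cfb (2.34 ± 0.298), C3 (1.51 ± 0.231), C2 (0.883 ± 0.0774) and C3ar1 (0.631 ± 0.0836) followed, each lower than the one before by more than the larger of their SDs. In OIR-CIH the middle of this order opened out, with C1qc at 6.95 ± 0.797, Serping1 at 4.78 ± 0.772 and C4b at 3.52 ± 0.226 CPM per kb. C1qc is annotated with more exon sequence, at 1.93 kb, than C1qa at 1.04 kb and C1qb at 1.09 kb, which lowers its value per kb.

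**Figure D3:**
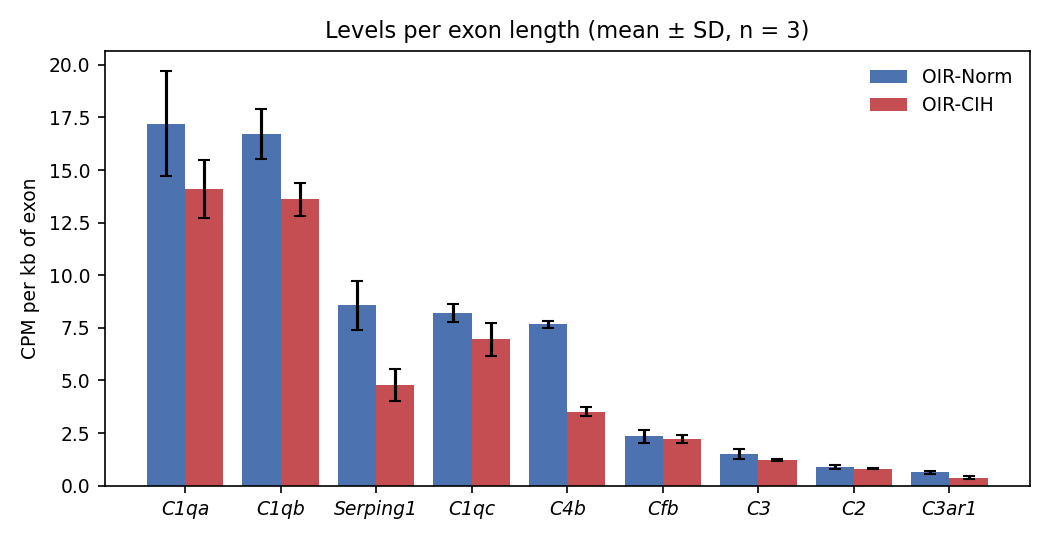
Mean CPM per kb of exon ± SD of 3 libraries for the 9 genes, ordered by their level in OIR-Norm (blue) beside OIR-CIH (red), on a linear axis from 0. C1qa and C1qb are the tallest pairs, and Serping1, C1qc and C4b, which are close in OIR-Norm, are spread in OIR-CIH.

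C4b, Cfb and C2 are neighbours on chromosome 17, within 169.9 kb, with a gap of 85 bp between Cfb and C2. Although near each other they differed in size of change, at -1.12 for C4b against -0.07 for Cfb and -0.12 for C2. Of 24 other genes tested from 120 kb before to 120 kb after the cluster, C4a and Zbtb12 included, edgeR called 0, and 3 had an unadjusted p under 0.05, against 13.2% of all genes tested. These 3, named after their values were seen, were Tnxb, an extracellular matrix gene next to C4b (log2 fold change -0.40, SE 0.17, edgeR adjusted p = 0.357), and, higher, 1110038B12Rik and Lsm2. Around the C1q genes 3 others were tested in the same distance, and 0 were called or had an unadjusted p under 0.05.

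**Figure D4:**
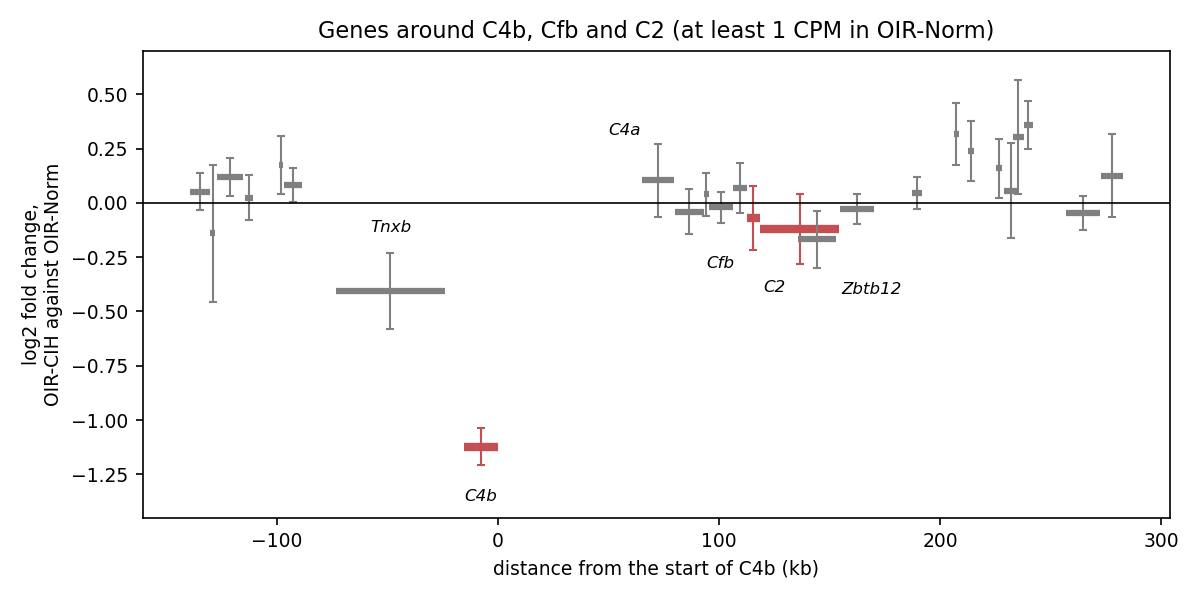
Log2 fold change (OIR-CIH against OIR-Norm, ± SE) of genes with at least 1 CPM in OIR-Norm, against distance in kb from the start of C4b. Horizontal bars span each gene, with C4b, Cfb and C2 in red, and C4b at -1.12 lies below every other gene drawn, while C4a lies at 0.10.

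The rest of the complement system was followed through a list of 51 further genes. Of these 7 were at 0 counts in all libraries and 16 in all were too low to be tested. Among the 35 tested, 20 had a lower and 15 a higher mean in OIR-CIH, and their median log2 fold change was -0.06. None was called by edgeR, 6 had an unadjusted p under 0.05, 4 of them lower and 2 higher, against 13.2% of all genes tested, and DESeq2 called 1, Itgb2.

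Of 8 receptors tested 7 had a lower mean in OIR-CIH, against 50.5% of all genes tested. In 5 every OIR-CIH library was below every OIR-Norm library, against 9.26% of all genes, and 4 had an unadjusted p under 0.05, against 13.2%. These are few genes, several of them from the same myeloid cells, and the list was written with earlier results known. Itgam, which pairs with the integrin chain encoded by Itgb2 to form complement receptor 3 of microglia and other myeloid cells, was at 5.55, 6.70 and 5.84 CPM in OIR-Norm and at 4.36, 3.92 and 4.34 CPM in OIR-CIH. It was not called (log2 fold change -0.52, SE 0.15, edgeR adjusted p = 0.206). Itgb2, named after its values were seen, was at 2.89, 3.47 and 3.27 CPM in OIR-Norm and at 1.41, 0.971 and 1.96 CPM in OIR-CIH. Its groups were apart, and the edgeR adjusted p for its log2 fold change of -1.13 (SE 0.24) was 0.0832, against 0.00807 by DESeq2 and 0.00526 by edgeR with every gene of at least 1 count tested. Itgax and C5ar1, the C5a receptor, were chosen in the same way and were low, with mean levels in OIR-Norm of 0.719 and 0.875 CPM and log2 fold changes of -1.64 (SE 0.40, edgeR adjusted p = 0.148) and -0.99 (SE 0.35, edgeR adjusted p = 0.284). Cd93, which is best known from endothelial cells, spread from 8.39 to 43.8 CPM within OIR-Norm, the highest in replicate 2, and its sign turned without that library. C1qbp, a mitochondrial protein that binds C1q, was at 31.2 ± 2.62 CPM in OIR-Norm and 33.8 ± 2.23 in OIR-CIH (SD, n = 3) and was not called (edgeR adjusted p = 0.622).

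Regulators other than Serping1 gave no call. Vtn and Clu, which restrain the terminal complex, were abundant, at 544.6 ± 74.1 and 584.6 ± 68.8 CPM in OIR-Norm and at 568.7 ± 46.8 and 547.4 ± 64.0 CPM in OIR-CIH (SD, n = 3). Their log2 fold changes were 0.06 and -0.09, with SEs of 0.11 each. On the membrane, Susd4 and Cd59a had their OIR-CIH libraries above their OIR-Norm libraries by log2 fold changes of 0.22 and 0.16 (edgeR adjusted p = 0.298 and 0.458), whereas Csmd2 overlapped.

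Elsewhere in the cascade transcripts were scarce or overlapped. The C1 proteases C1ra and C1s1 were at 2.50 ± 0.606 and 1.34 ± 0.474 CPM in OIR-Norm and at 2.14 ± 0.0738 and 0.917 ± 0.230 CPM in OIR-CIH (SD, n = 3), and share 34.5% and 17.4% of their 100-base stretches with copies, so that their values are uncertain. The log2 fold change of C1s1 was -0.57 (SE 0.31, edgeR adjusted p = 0.471), but -0.27 without OIR-Norm replicate 1 and -0.36 by limma. Cfp, which stabilizes the alternative pathway enzyme, was at 9.78 ± 1.24 and 9.38 ± 0.795 CPM (edgeR adjusted p = 0.882), and Cfd had 5 counts over the 6 libraries. Of the 7 genes of the terminal pathway, which forms the membrane pore, C8g was at 3.08 ± 0.352 CPM in OIR-Norm and 2.99 ± 0.588 in OIR-CIH (SD, n = 3), C8b had 23 counts in all and Hc, the gene of C5, had 9.

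**Figure D5:**
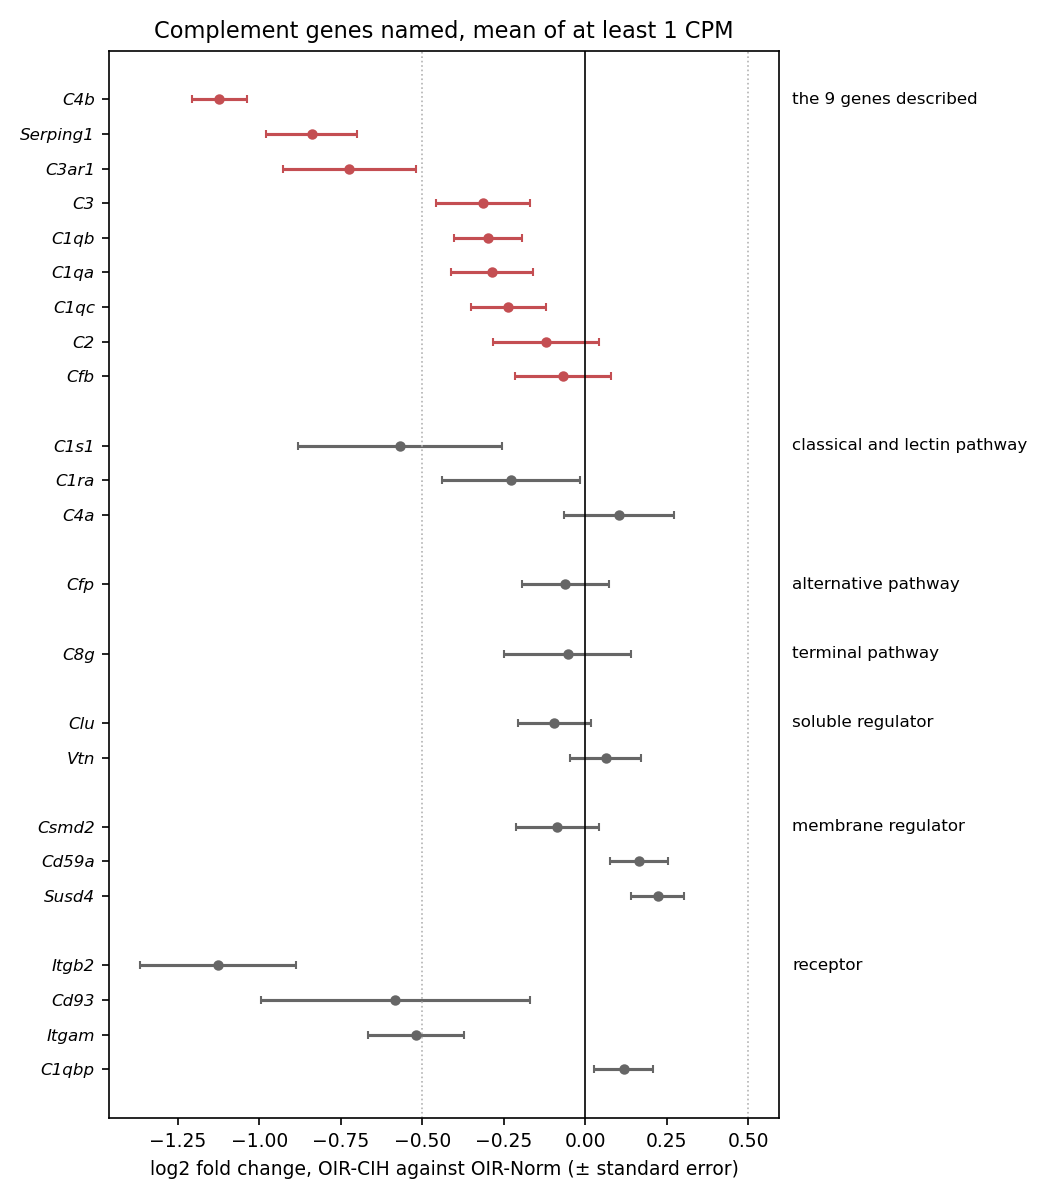
Log2 fold change ± SE, OIR-CIH against OIR-Norm, of the 9 genes described (red) and of the other complement genes named in the text with a mean of at least 1 CPM (grey), grouped by role, with dotted lines at 0.5 in either direction. C4b, Serping1 and C3ar1 lie beyond -0.5 among the 9, and of the others C1s1 and the receptors Itgb2, Cd93 and Itgam do, none of them called by edgeR, and C1s1 lies at -0.27 without OIR-Norm replicate 1.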

How the data were processed

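Retinal poly(A) RNA libraries, 3 of OIR-CIH and 3 of OIR-Norm, were sequenced. Per the paper's methods, the authors aligned reads with STAR 2.7.9a to Ensembl 105 (the submitters' processing notes name GRCm38) and deposited raw counts per gene, unnormalized. Which strand column was kept is not given in the sources used here. Gene symbols were matched by identifier for 32158 of 32285 genes; coordinates and exon lengths are from GENCODE M21.

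Genes with at least 10 counts in total (20021) were tested by edgeR 4.0.16 (glmQLFit, glmQLFTest, TMM scaling, R 4.3.3) over all genes, two-sided, with Benjamini-Hochberg adjustment. In data simulated for this comparison on 19749 genes, 95 of 100 genes changed by 1 on the log2 scale and 83 of 100 changed by 0.7 were called, with 14 unchanged genes. The changed genes were drawn only from those with a mean of at least 100 counts per library. These shares therefore do not hold for genes with fewer counts, such as C3ar1, Itgb2, Itgax, C5ar1 and C1s1. The 9 members and all lists were chosen with earlier results of these data known. Besides the members, the text names the 3 complement genes of highest mean CPM in each role, copies and overlapping genes, and the 5 nearest profiles; Fcrls, the profiles nearest to Serping1, Itgb2, Itgax, C5ar1, Tnxb, 1110038B12Rik and Lsm2 were added after their values were seen. Alternatives were DESeq2 1.42.0, limma 3.58.1 on log2(CPM + 0.5), other scaling and filters, no minimum fold change, a replicate block and leaving out each library. Of the complement genes that this rule names, 1 is not reported here. No replicates agreed within sampling noise. Total counts limit the precision of genes with few counts.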

Additional observations from a re-analysis of the deposited data

How the results depend on the processing

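The number of genes called, 63, was 135 with DESeq2 and 213 with all genes of at least 1 count tested. With single libraries left out it ran from 35, when OIR-CIH replicate 1 was left out, to 104, when OIR-Norm replicate 3 was. Of the 9 complement genes 2 were called in every fit of all libraries, and 1 to 2 with a library left out. The gene lost was Serping1. These genes were selected on this comparison, and the counts are a description. Of the other complement genes 1, Itgb2, was called with DESeq2, with every gene of at least 1 count and without OIR-CIH replicate 3 (range 0 to 1). With libraries left out the log2 fold change ran from -0.17 to 0.10 for C8g, from -0.99 to 0.19 for Cd93, from -0.14 to 0.0415 for Cfp, from -0.25 to 0.048 for Csmd2 and from -0.0192 to 0.17 for Vtn, and so turned sign. The causes were not tested. The deviations of same-numbered libraries from their group means correlated weakly (r = 0.162, 0.143 and -0.238). With 3 libraries per group these values cannot settle whether the numbers pair them. With the replicate block 84 genes were called, with 2 of the 9 and 0 of the others. Among the 9 genes depth limits C3ar1 most, at 40 to 88 counts per library, and several of the other complement genes named had fewer.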
